A study of Rattus norvegicus with 12 samples.

Results

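Cells meet oxidants and electrophiles with a shared set of enzymes, and 43 genes of that set were followed here in rat liver cells kept with human amniotic cells: the regulators of the transcription factor NRF2, the enzymes that make and use glutathione, the thioredoxin and peroxiredoxin enzymes, catalase and the superoxide dismutases. They were taken by symbol from the deposited gene tables. Of the 43 symbols, 41 were found, each once, among the 32623 genes listed, and Pgd and Gstm2 were not analysed here. The expression filter kept 40 of the 41. Gsta4, an alpha-class glutathione transferase, lay at 0 to 0.162 CPM (read counts scaled to an equal library total) and was not tested.

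Polyadenylated RNA was sequenced in 12 libraries of primary rat cells labelled hepatic stellate cells (HSC), 4 per group. All were isolated by gradient centrifugation from livers made cirrhotic by long-term CCl4 inhalation, so every group, vehicle included, carries that injury. The groups were co-culture across Transwell inserts for 24 h with 15000 viable hAEC (human amniotic epithelial cells; libraries 3, 4, 11 and 12), the same with hAMSC (human amniotic mesenchymal stromal cells; libraries 7, 8, 15 and 16), and vehicle (libraries 17, 18, 19 and 20). The inserts hold the human cells apart from the rat cells. Strain, sex and age are not in the labels, nor is it said whether different rats or culture wells stand behind the 4 libraries of a group. A p-value here therefore speaks for the scatter of these libraries and no further, and that scatter may be technical.

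Totals ran from 27382724 to 34922211 counts per library, and 39 of the 41 members averaged at least 5 CPM, so counting error is small for most of them. The libraries fell into 2 sets of 6 along the first principal component (73.5% of the variance over 2000 genes taken for their high variance), with 2 libraries of each group in each set. The lower-numbered set holds libraries 3, 4, 7, 8, 17 and 18, and the higher-numbered set 11, 12, 15, 16, 19 and 20. The sets were read from the data and not from the labels, and what they stand for is not known, so each co-culture was compared with vehicle within sets, with the set as a term of the model. Markers did not bear out the cell label, though CPM are not scaled to gene length and compare genes only roughly. All 14 macrophage markers passed the filter, with Cd68 at 1525 to 1681 CPM and the Kupffer cell lectin Clec4f at 735 to 1029 CPM. Of the stellate markers, 7 of 11 passed. Reln was the highest of the 11, at 6.71 to 92.2 CPM. Acta2 stood at 0.802 to 3.0 CPM, Col1a1 at 0.659 to 5.21 CPM and Lrat at 0 to 0.371 CPM. The cells are therefore called by their label only.

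NRF2, encoded by Nfe2l2, is bound in the cytoplasm by KEAP1, which hands it to the proteasome. Oxidants and electrophiles modify KEAP1, and NRF2 then builds up, enters the nucleus and binds antioxidant response elements with a small MAF protein, while BACH1 competes for the same elements as a repressor. Its targets feed glutathione synthesis, the conjugation of electrophiles to glutathione, quinone reduction and the supply of NADPH. Liver macrophages also make oxidants of their own, and in mice NRF2 is known to restrain their inflammatory output.

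In hAMSC co-cultures, 3 enzymes of electrophile defence fell and 1 mitochondrial antioxidant enzyme rose. Relative to vehicle, Gstp1 fell by 17.5%, Nqo1 fell by 17.2%, Gsta1 fell by 15% and Sod2 rose by 18%. These 4 of the 40 tested members passed an adjusted p under 0.05 (edgeR quasi-likelihood test, adjusted over all 13539 genes tested), where 0.236% of all genes did so. An unadjusted p under 0.05 was found for 14 members (35%, against 9.68% of all genes). Of these, 2 were higher (5%, against 5.27% of all genes) and 12 lower (30%, against 4.41%). By direction, 1 member was called higher, against 0.155% of all genes, and 3 lower, against 0.0812%. No regulator of NRF2 passed.

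Gstp1 is the pi-class glutathione transferase, which joins glutathione to electrophiles. Values are given by library number, so the first pair of each group belongs to the lower-numbered set. Gstp1 stood at 669, 645, 1207 and 1184 CPM with hAMSC, against 803, 813, 1461 and 1396 CPM with vehicle. In each set both hAMSC libraries lay below both vehicle libraries. The log2 difference was -0.28 ± 0.03 (SE; adjusted p = 0.00196), with -0.26 in the higher-numbered set alone and -0.29 in the lower-numbered set alone. In bulk RNA, fewer cells of a type and less RNA per cell cannot be told apart.

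Nqo1, the quinone reductase whose transcript is the usual readout of NRF2 activity, stood at 227, 217, 507 and 479 CPM with hAMSC, against 286, 279, 578 and 553 CPM with vehicle. The groups again did not overlap in either set. Its log2 difference was -0.27 ± 0.04 (SE; adjusted p = 0.00648). Within sets it was -0.20 in the higher-numbered set (adjusted p = 0.219 there) and -0.34 in the lower-numbered set (adjusted p = 0.0157).

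Gsta1, an alpha-class transferase that also reduces lipid peroxides, stood at 78.3, 74.4, 187 and 191 CPM with hAMSC, against 98.9, 91.8, 216 and 205 CPM with vehicle. Its log2 difference was -0.23 ± 0.04 (SE; adjusted p = 0.0314), and the groups did not overlap in either set. Within sets it was -0.16 in the higher-numbered set (adjusted p = 0.443 there) and -0.31 in the lower-numbered set (adjusted p = 0.0324). Symbols of the alpha class differ between rat annotations, so Gsta1 here means the row with the identifier ENSRNOG00000013484. Sod2, the manganese superoxide dismutase of mitochondria, which is also a classical NF-kB target, went the other way, with 1587, 1540.0, 496 and 428 CPM with hAMSC, against 1402, 1391, 362 and 380.4 CPM with vehicle. Both hAMSC libraries lay above both vehicle libraries in each set. Its log2 difference was 0.24 ± 0.05 (SE; adjusted p = 0.0474). Within sets it passed in neither, at 0.31 in the higher-numbered set (adjusted p = 0.0879) and 0.17 in the lower-numbered set (adjusted p = 0.112).

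The calls of Gsta1 and Sod2 were close to the threshold. With 1 library left out at a time, the log2 difference stayed at -0.26 to -0.20 for Gsta1 and at 0.18 to 0.27 for Sod2, but most fits no longer passed. Gsta1 passed in 2 of 12 fits, those without hAEC 12 and without hAMSC 15, and its adjusted p ran from 0.0535 to 0.156 in the 10 others, those without hAEC 3, 4 or 11, without hAMSC 7, 8 or 16, or without any 1 of the 4 vehicle libraries. Sod2 passed in 2 of 12 fits, those without hAMSC 7 and without hAMSC 15, with an adjusted p of 0.0678 to 0.154 in the 10 others, those without any 1 of the 4 hAEC libraries, without hAMSC 8 or 16, or without any 1 of the 4 vehicle libraries. Gstp1 and Nqo1 passed in all 12. Estimated counts were not whole in 5 of 12 libraries for Gstp1 and in 6 for Gsta1, as happens where reads are shared out among similar genes, and were whole in all 12 for Nqo1 and Sod2.

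**Figure D1:**
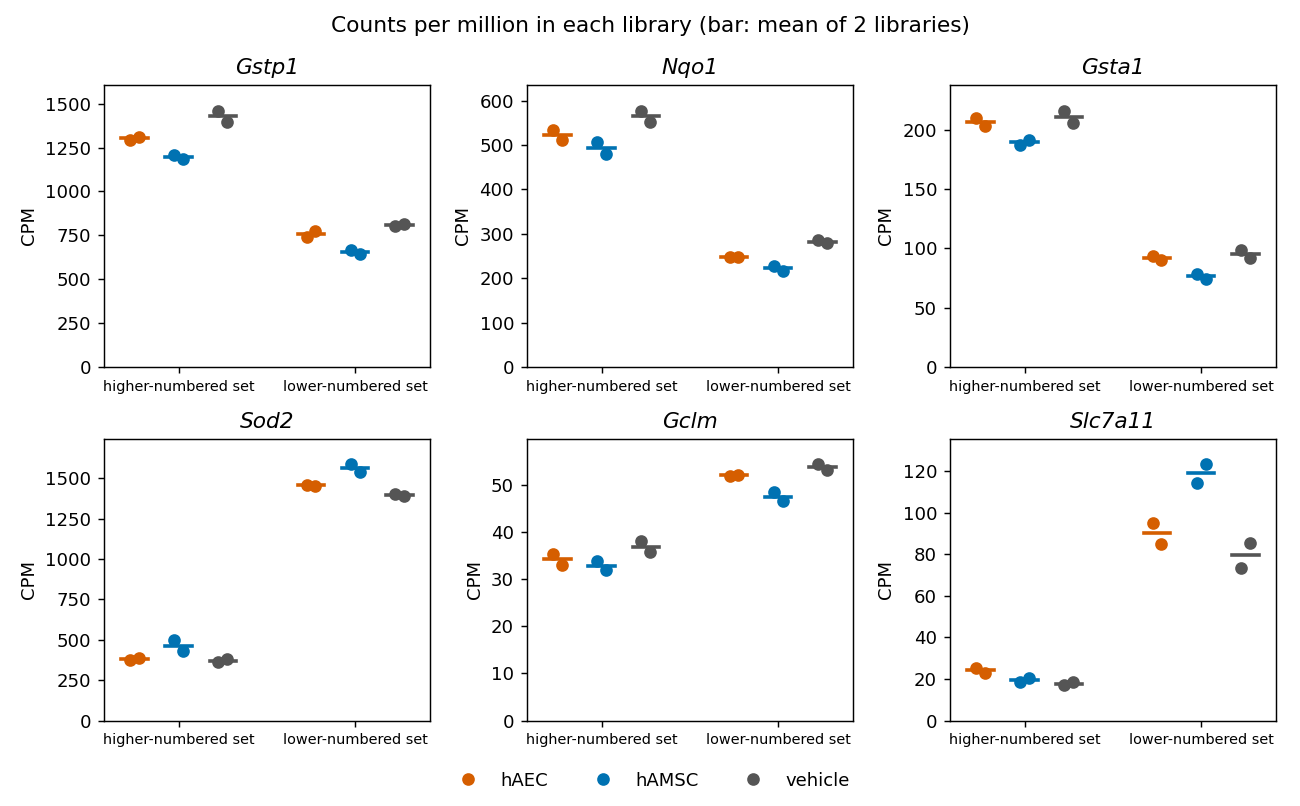
CPM (vertical axis, from 0) of Gstp1, Nqo1, Gsta1, Sod2, Gclm and Slc7a11 in each library, with 1 point per library and a bar at the mean of the 2 libraries of a group in a set; the higher-numbered set is on the left and the lower-numbered set on the right, and colours mark hAEC, hAMSC and vehicle. Gstp1, Nqo1 and Gsta1 with hAMSC lie below vehicle in both sets and Sod2 above it, while the step between the sets is larger than the co-culture difference for these 4 genes.

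Across the 40 tested members, 34 had estimates below 0 with hAMSC (85% of members, against 51.1% of all genes tested). The median log2 difference was -0.08, against -0.0027 for all genes. In both sets, 8 members had both hAMSC libraries below both vehicle libraries (20% of members, against 4.48% of all genes), and 1 had both above (2.5%, against 3.94%). The 8 were Bach1, Gclm, Gss, Gsta1, Gstp1, Nqo1, Osgin1 and Tkt. The 1 was Sod2.

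By role, all 8 tested cytosolic and mitochondrial glutathione transferases had estimates below 0, at log2 differences of -0.30 to -0.06, and 2 of them (Gstp1 and Gsta1) passed. The 3 microsomal transferases lay at -0.19 to -0.08, the 3 thioredoxin genes at -0.19 to -0.0019 and the 5 peroxiredoxins, which reduce peroxides, at -0.11 to -0.02. None of these 11 passed. The 3 glutathione peroxidases, which spend glutathione on peroxides, lay at -0.05 to 0.04 and none passed. Of the 4 quinone reductase and other target genes, all below 0 at -0.27 to -0.05, Nqo1 passed. The 3 tested NADPH suppliers lay at -0.15 to 0.07, and none passed. Catalase and the cytosolic superoxide dismutase Sod1 lay at -0.04 and -0.07 and did not pass.

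Among the regulators, Nfe2l2 stood at 413, 394, 355 and 358 CPM with hAMSC, against 391, 370.0, 369 and 347 CPM with vehicle. Its log2 difference was 0.04 (adjusted p = 0.775), with -0.0056 in the higher-numbered set and 0.09 in the lower-numbered set. NRF2 is governed mostly by its protein's stability, which RNA does not show. Keap1 stood at 71.0, 62.1, 61.1 and 58.1 CPM with hAMSC, against 67.6, 68.9, 65.4 and 63.7 CPM with vehicle (log2 difference -0.08, adjusted p = 0.697). Bach1 stood at 195, 196, 128 and 121 CPM with hAMSC, against 200.2, 218, 137 and 142 CPM with vehicle. It was below vehicle in both sets without passing (log2 difference -0.13, adjusted p = 0.219).

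In glutathione synthesis, Gclm, the modifier subunit of glutamate-cysteine ligase, stood at 48.4, 46.6, 33.8 and 32.0 CPM with hAMSC, against 54.4, 53.3, 38.0 and 35.7 CPM with vehicle. All hAMSC libraries lay below the vehicle libraries of their set, and the log2 difference of -0.17 ± 0.04 (SE) missed the threshold (adjusted p = 0.142). Gclc, the catalytic subunit of the same ligase, stood at 244, 211, 337 and 348 CPM with hAMSC, against 234, 224, 374 and 386 CPM with vehicle (log2 difference -0.08, adjusted p = 0.598). The cystine transporter subunit Slc7a11, which brings in the cystine from which cysteine is made, had 114, 123, 18.4 and 20.6 CPM with hAMSC, against 73.4, 85.6, 16.9 and 18.5 CPM with vehicle. The log2 difference was 0.14 in the higher-numbered set (adjusted p = 0.866 in that set alone) and 0.59 in the lower-numbered set (adjusted p = 0.0297), and the test of the difference between the sets did not pass (-0.44, adjusted p = 0.264). Over both sets it was 0.40 ± 0.14 (SE; adjusted p = 0.398).

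Of the thioredoxin genes, Txnrd1, which reduces thioredoxin with NADPH, stood at 736, 672, 367 and 344 CPM with hAMSC, against 717, 701, 377 and 389 CPM with vehicle. Srxn1, the sulfiredoxin that restores over-oxidised peroxiredoxins, stood at 19.4, 19.1, 7.28 and 5.83 CPM with hAMSC, against 18.6, 22.3, 6.46 and 9.90 CPM with vehicle. Groups overlapped in at least 1 set for both genes, and neither passed (adjusted p = 0.651 for Txnrd1 and 0.779 for Srxn1).

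Marker genes of other cell types were summed in the same libraries. The 14 macrophage markers summed to 20870 and 21170 CPM with hAMSC, against 21710 and 22620 CPM with vehicle, in the higher-numbered set, and to 8609 and 9026 CPM with hAMSC, against 8527 and 8998 CPM with vehicle, in the lower-numbered set. The 8 endothelial markers summed to 113.5 and 132.8 CPM with hAMSC, against 81.9 and 86.7 CPM with vehicle, in the higher-numbered set, and to 358 and 452 CPM with hAMSC, against 416 and 440.4 CPM with vehicle, in the lower-numbered set. The 10 hepatocyte markers, mostly transferrin, summed to 733 and 826 CPM with hAMSC, against 678 and 696 CPM with vehicle, in the higher-numbered set, and to 638 and 736 CPM with hAMSC, against 603 and 670.0 CPM with vehicle, in the lower-numbered set. The 11 stellate markers summed to 24.3 and 24.8 CPM with hAMSC, against 21.8 and 22.0 CPM with vehicle, in the higher-numbered set. They summed to 62.7 and 84.7 CPM with hAMSC, against 80.8 and 102 CPM with vehicle, in the lower-numbered set. Reln made up most of the stellate sums in the lower-numbered set. In the higher-numbered set the endothelial, hepatocyte and stellate sums with hAMSC lay above both vehicle sums and the macrophage sums below both. In that set Lyz2 averaged 8452 CPM with hAMSC, against 9483 CPM with vehicle. Csf1r, Adgre1, C1qa, C1qb, C1qc and Aif1 also had lower means with hAMSC. The other macrophage markers had higher means, among them Cd163 (137 against 85.3 CPM) and Clec4f (872 against 758 CPM). The hepatocyte sum in that set followed transferrin, Tf (770 against 675 CPM). Ttr and Cps1 also had higher means with hAMSC, and the other hepatocyte markers, Alb among them, had lower ones. Of the stellate markers, Reln (12.5 against 9.29 CPM), Pdgfrb, Lrat, Rgs5 and Colec11 had higher means with hAMSC. Col1a1, Col3a1, Acta2, Des, Lum and Dcn had lower ones. No marker was at 0 in every library. Their part in the differences above was not tested.

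The promoter windows of Gstp1, Nqo1 and Sod2 are shown because NRF2 acts through antioxidant response elements close to many of its targets. They run from 250 bases before to 50 after the gene start in RefSeq (GRCr8), 5′ to 3′ on the gene's strand, with capitals marking a match to the core element TGACNNNGC on either strand. A window was found by symbol for 36 of the 41 members, and none for Gsr, Gstt1, Gstt2, Mgst2 and Prdx6. The window under the symbol Gsta1 is not shown, since it could not be tied to the measured Gsta1 row by an identifier. Gclm and Txnrd1 are shown as 61 bases around their match, as established NRF2 targets that did not pass with hAMSC.
Gstp1, chr1:210769656-210769955, minus strand: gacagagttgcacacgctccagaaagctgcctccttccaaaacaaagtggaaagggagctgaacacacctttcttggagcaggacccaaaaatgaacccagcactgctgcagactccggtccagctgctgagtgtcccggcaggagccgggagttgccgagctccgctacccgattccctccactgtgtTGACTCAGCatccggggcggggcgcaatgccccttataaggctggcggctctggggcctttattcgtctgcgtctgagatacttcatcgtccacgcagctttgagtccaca
Nqo1, chr19:52220218-52220517, minus strand: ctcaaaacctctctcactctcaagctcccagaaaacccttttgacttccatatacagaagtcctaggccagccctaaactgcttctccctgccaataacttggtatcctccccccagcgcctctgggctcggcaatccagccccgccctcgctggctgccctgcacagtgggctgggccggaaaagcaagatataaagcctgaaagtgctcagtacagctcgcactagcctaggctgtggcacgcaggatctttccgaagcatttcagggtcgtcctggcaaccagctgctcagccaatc
Sod2, chr1:50050119-50050418, minus strand: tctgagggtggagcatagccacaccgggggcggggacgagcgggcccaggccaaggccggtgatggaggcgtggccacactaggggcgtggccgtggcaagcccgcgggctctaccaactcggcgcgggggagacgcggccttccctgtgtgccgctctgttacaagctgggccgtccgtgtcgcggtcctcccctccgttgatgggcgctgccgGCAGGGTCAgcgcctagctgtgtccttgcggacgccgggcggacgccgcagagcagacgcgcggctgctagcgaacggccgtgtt
Gclm, chr2:213031937-213031997, plus strand: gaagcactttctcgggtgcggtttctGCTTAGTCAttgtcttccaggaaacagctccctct
Txnrd1, chr7:22755948-22756008, minus strand, in the second of its 2 windows: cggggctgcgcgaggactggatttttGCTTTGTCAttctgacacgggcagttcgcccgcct

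The core letters were in the windows of 10 of 36 members (27.8%): Ephx1, Gclm, Gsta1, Gstp1, Me1, Nfe2l2, Prdx1, Prdx5, Sod2 and Txnrd1. Counted by window, 10 of the members' 40 windows held them (25%), against 12.06% of all 33469 windows. The longer form, with an A after the core, was in the windows of 4 members (Gclm, Gsta1, Gstp1 and Txnrd1; 11.1% of members). Counted by window, that was 10% of the members' windows, against 3.0% of all windows. Gsta1 is counted here by its symbol alone, which may name another alpha-class gene in RefSeq. Of the windows shown for genes called with hAMSC, that of Gstp1 held the longer form, that of Sod2 only the core, on the opposite strand, and the Nqo1 window neither. The match in Gstp1 starts 61 bases before the gene start and also spells TGACTCA, the site known for AP-1 factors. A match is a run of letters and not a measured site, and no match says only that the letters are not in this window.

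With hAEC, no member passed. The estimates lay below 0 for 34 of 40 members (85%, against 51.5% of all genes tested), with a median log2 difference of -0.04, against -0.0032 for all genes. edgeR called 0 members and 0.0% of all genes. An unadjusted p under 0.05 was found for 6 members (15%, against 5.61% of all genes). All 6 were lower, where 2.35% of all genes were lower at that p. DESeq2 and limma-voom called 0 members as well. Both co-cultures were compared with the same 4 vehicle libraries, so the 2 comparisons are not independent.

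The 5 members with the smallest p with hAEC were Nqo1, Bach1, Gstp1, Gss and Gstm1. Nqo1 stood at 247, 248, 534 and 512 CPM with hAEC, below both vehicle libraries in each set (log2 difference -0.15 ± 0.04, SE; adjusted p = 0.860). Gstp1 stood at 741, 776, 1295 and 1310.0 CPM with hAEC, also below both vehicle libraries in each set (log2 difference -0.11 ± 0.03, SE; adjusted p = 0.860). Bach1 stood at 187, 196, 129 and 127 CPM with hAEC, and it too lay below vehicle in each set (log2 difference -0.13 ± 0.04, SE; adjusted p = 0.860). With these 3, Gclm and Gstt1 made up the 5 members separated downward in both sets (12.5% of members, against 3.6% of all genes). No member was separated upward in both sets, against 4.39% of all genes.

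Gss, glutathione synthetase, had 47.1, 45.7, 28.9 and 26.2 CPM with hAEC, against 51.4, 53.9, 28.6 and 28.5 CPM with vehicle (log2 difference -0.12, adjusted p = 0.881). Its hAEC libraries lay below vehicle in the lower-numbered set and overlapped it in the other. The mu-class transferase Gstm1 had 32.2, 34.9, 63.0 and 59.7 CPM with hAEC, against 38.2, 35.7, 69.0 and 62.9 CPM with vehicle (log2 difference -0.12, adjusted p = 0.881). The theta-class transferase Gstt1 had 6.94 to 22 counts per library, at 0.236 to 0.509 CPM with hAEC, against 0.548 to 0.794 CPM with vehicle. Slc7a11 stood at 95.0, 85.0, 25.5 and 22.8 CPM with hAEC (log2 difference 0.31, adjusted p = 0.881). It was above vehicle in the higher-numbered set and overlapped it in the lower-numbered one.

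The remaining regulators, ligase subunits and thioredoxin genes did not pass with hAEC. Nfe2l2 stood at 390.1, 389, 358 and 344 CPM, Keap1 at 72.3, 69.5, 54.9 and 62.2 CPM and Gclm at 51.8, 52.2, 35.4 and 33.0 CPM with hAEC. Gclc stood at 232, 228, 376 and 382 CPM, Txnrd1 at 713, 718, 359 and 369.6 CPM and Srxn1 at 17.8, 19.2, 5.45 and 9.51 CPM with hAEC. Of these 6, Gclm was the 1 whose libraries lay below vehicle in both sets.

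**Figure D2:**
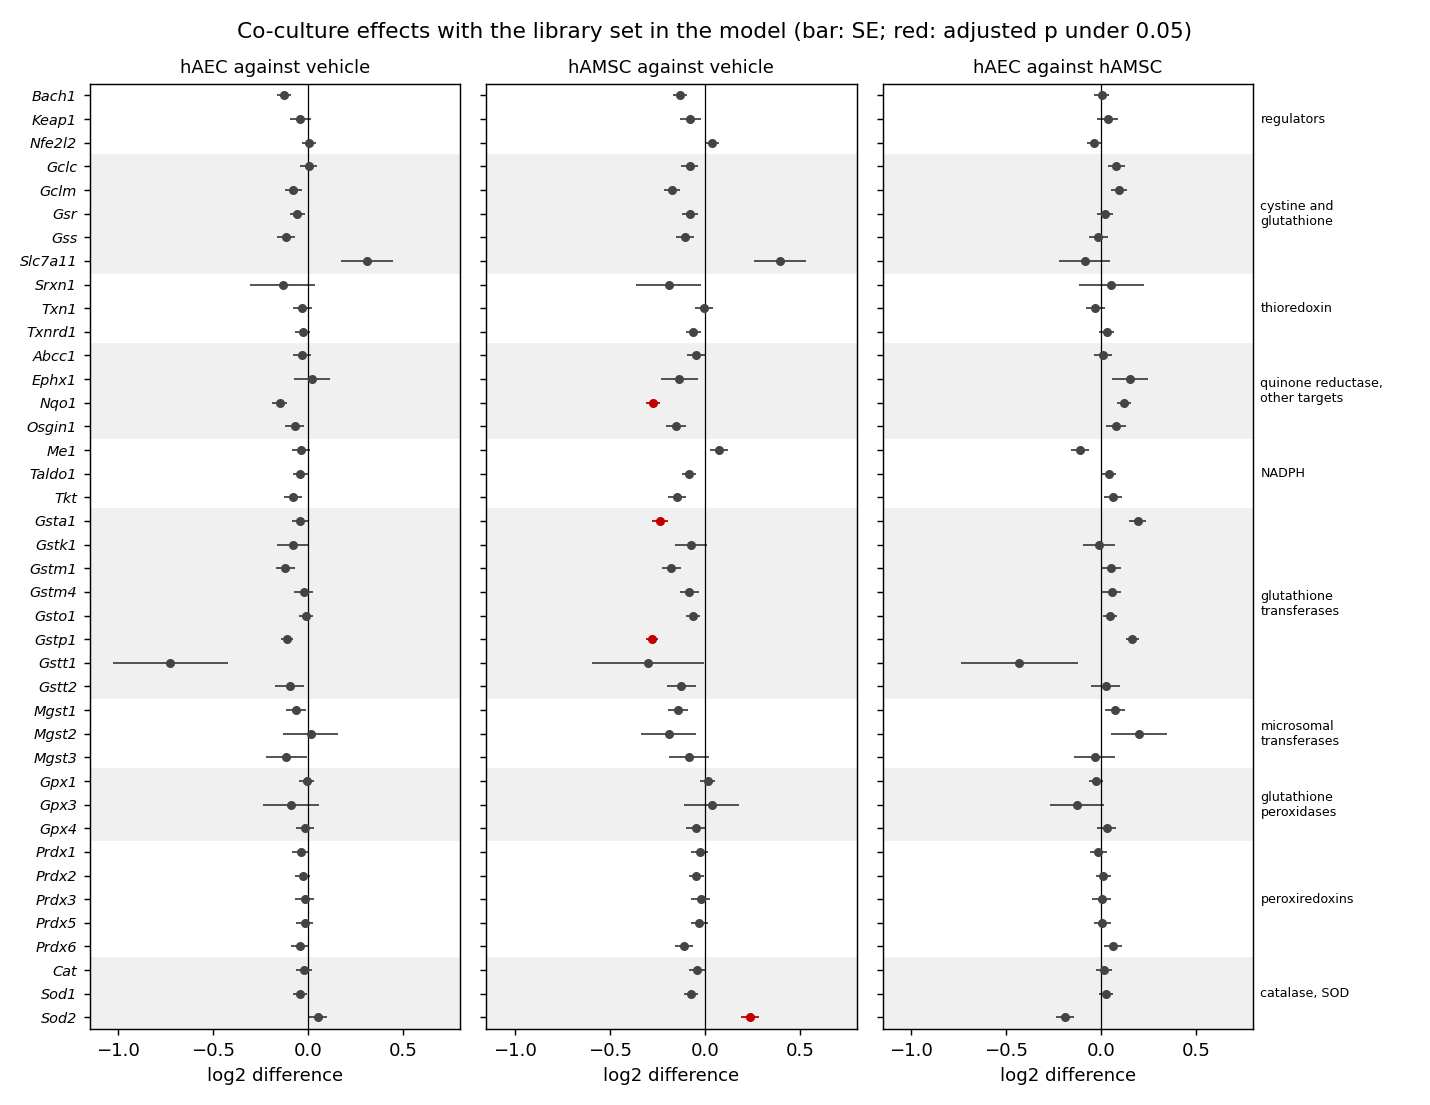
Log2 differences (horizontal axis; bars are SE from the fit over 12 libraries) of the 40 tested members, grouped by role, for hAEC and for hAMSC against vehicle and for hAEC against hAMSC; red marks an adjusted p under 0.05. Most members lie left of 0 in both comparisons with vehicle, and the 4 red points are Gstp1, Nqo1, Gsta1 and Sod2 with hAMSC.

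Set against each other, hAEC and hAMSC gave no member that passed. edgeR called 0 of 40 members, against 0.0222% of all genes, with 6 members at an unadjusted p under 0.05 (15%, against 6.37% of all genes); limma-voom called 0 and DESeq2 called 3 (Gstp1, Gsta1 and Sod2). The median log2 difference, hAEC minus hAMSC, was 0.03, against -1e-04 for all genes.

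Gstp1 was 0.17 ± 0.03 higher on the log2 scale with hAEC than with hAMSC (SE; adjusted p = 0.107). Gsta1 stood at 93.8, 89.8, 210.0 and 203 CPM with hAEC, and its log2 difference from hAMSC was 0.19 ± 0.04 (SE; adjusted p = 0.145). Sod2 stood at 1459, 1452, 377 and 385 CPM with hAEC, with a log2 difference of -0.19 ± 0.05 (SE; adjusted p = 0.21). For Nqo1 it was 0.12 ± 0.04 (SE; adjusted p = 0.466). Me1, the malic enzyme that supplies NADPH, stood at 148, 143, 45.6 and 47.7 CPM with hAEC, against 159, 155, 51.7 and 49.3 CPM with hAMSC, a log2 difference of -0.11 ± 0.05 (SE; adjusted p = 0.708). In both sets the hAEC libraries lay above the hAMSC libraries for Gsta1, Gstp1 and Nqo1 (7.5% of members, against 3.69% of all genes) and below them for Gstt1, Me1 and Sod2 (7.5%, against 3.83%).

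Whether an effect differed between the sets was tested with an interaction term, as the effect in the higher-numbered set minus that in the lower-numbered set. For hAEC against vehicle edgeR called 0 members and 0.0% of all genes (1 member, 2.5%, at an unadjusted p under 0.05, against 5.4% of all genes; DESeq2 and limma-voom 0). For hAMSC against vehicle it called 0 members, against 0.199% of all genes, 0.17% higher and 0.0295% lower (5 members, 12.5%, at an unadjusted p under 0.05, against 10% of all genes; DESeq2 and limma-voom 0). For hAEC against hAMSC it called 0 members and 0.0% of all genes (3 members, 7.5%, at an unadjusted p under 0.05, against 5.2% of all genes; limma-voom 0), while DESeq2 called 1, Slc7a11. The Slc7a11 interaction was 0.71 ± 0.13 on the log2 scale (SE; adjusted p = 0.101): hAEC minus hAMSC was 0.31 in the higher-numbered set and -0.40 in the lower-numbered set. The test of hAEC against hAMSC between the sets was added after the data were seen.

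With hAMSC, the smallest p of the interaction belonged to Slc7a11 (-0.44 ± 0.13, SE; adjusted p = 0.264), Ephx1 (0.49 ± 0.16; adjusted p = 0.298) and Prdx5 (0.20 ± 0.07; adjusted p = 0.334). Ephx1, the microsomal epoxide hydrolase, stood at 5.93, 6.64, 21.9 and 23.6 CPM with hAMSC, against 8.45, 8.12, 23.2 and 19.6 CPM with vehicle. Prdx5, a peroxiredoxin of mitochondria and peroxisomes, stood at 1409, 1443, 691 and 652 CPM with hAMSC, against 1570.0, 1550.0, 643 and 634 CPM with vehicle, so it was above vehicle in the higher-numbered set and below it in the lower-numbered set. With hAEC, Mgst2, a microsomal transferase, had the smallest p (-0.68 ± 0.26, SE; adjusted p = 0.901). It stood at 1.42, 1.73, 10.2 and 9.74 CPM with hAEC, against 1.08, 1.23, 12.7 and 10.7 CPM with vehicle. Slc7a11 (0.27; adjusted p = 0.921) and Keap1 (-0.20; adjusted p = 0.935) came next.

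Between the library sets the log2 differences of the members ran from -2.22 to 3.33, beside -0.28 to 0.24 for the 4 members called with hAMSC. Some roles lay on 1 side of 0 and others were mixed. Glutathione transferases and glutathione peroxidases lay on the side of the higher-numbered set. The 8 tested cytosolic and mitochondrial transferases, the 3 microsomal transferases and the 3 glutathione peroxidases all had positive log2 differences. That of Gstt1 was only 0.04, with overlapping sets. Peroxiredoxins and the thioredoxin genes were lower in the higher-numbered set: all 5 and all 3 had negative log2 differences, down to -1.22 and -1.39, though that of Prdx2 was only -0.02. The 3 regulators were negative as well. The other 4 roles held members of both signs: 2 positive and 3 negative in cystine uptake and glutathione synthesis, 3 and 1 among the quinone reductase and other targets, 1 and 2 in NADPH supply, and 2 and 1 among catalase and the superoxide dismutases. These values have no test, since the sets were read from the same data, and members were not chosen by them.

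**Figure D3:**
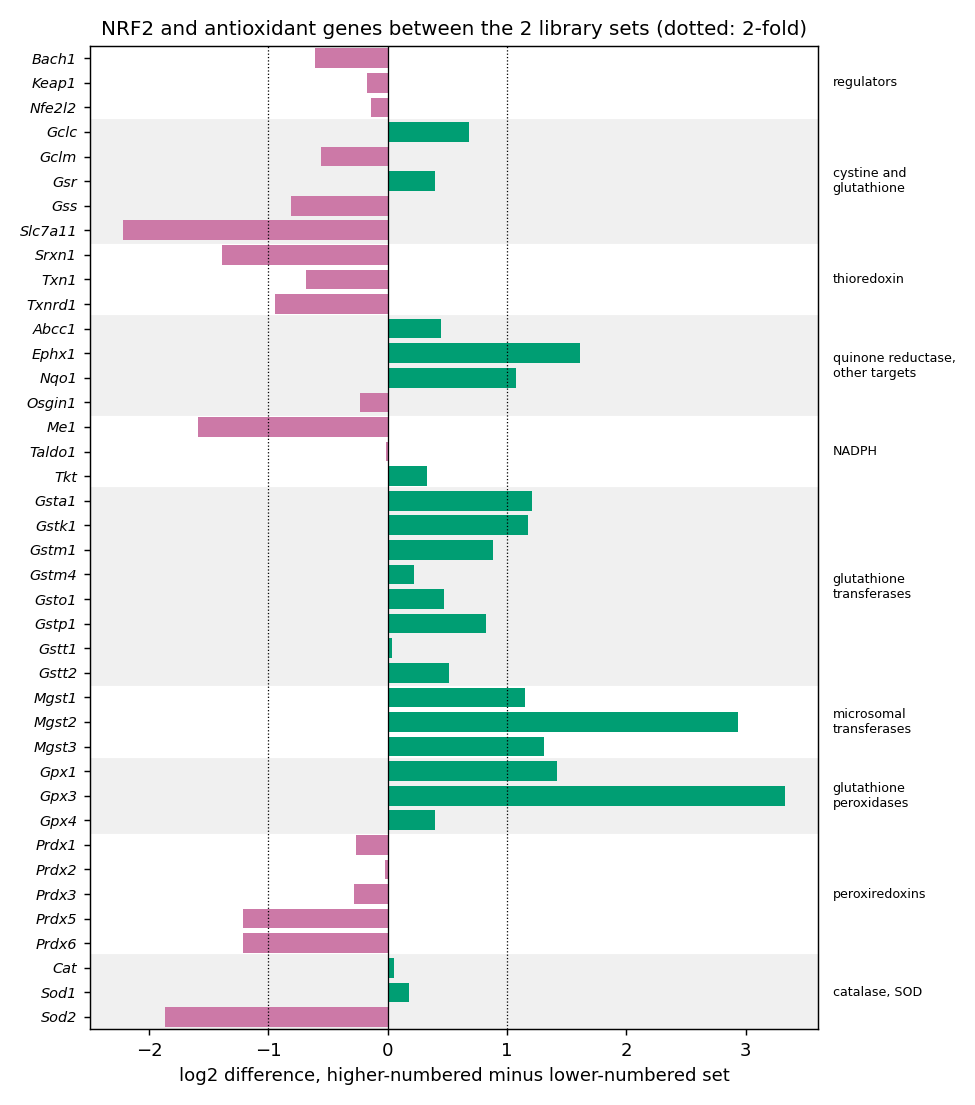
Log2 difference between the library sets (horizontal axis, higher-numbered minus lower-numbered; bars start at 0, dotted lines mark 2-fold) for the 40 tested members, grouped by role. Glutathione transferases and glutathione peroxidases lie right of 0, peroxiredoxins and thioredoxin genes left of it, with Gpx3 at 3.33 and Slc7a11 at -2.22 at the ends.

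Past 2-fold, 9 of 40 members were higher in the higher-numbered set, where 9.71% of all genes were, and 6 were lower, where 9.98% of all genes were. All 6 libraries of the higher-numbered set lay above all 6 of the lower-numbered set for 20 members, against 26.9% of all genes, and below them for 15, against 28.0%. At the 2-fold line, Nqo1 lay just inside (log2 difference 1.08), while Txnrd1 (-0.95) and Gstm1 (0.88) lay just outside.

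Gpx3, a secreted glutathione peroxidase, was the member with the highest log2 difference, 3.33. In the higher-numbered set it stood at 9.51 to 14.2 CPM, and in the lower-numbered set at 0.861 to 1.33 CPM. Mgst2 (log2 difference 2.94) stood at 9.13 to 12.7 CPM in the higher-numbered set and 1.06 to 1.73 CPM in the lower-numbered set. Ephx1 (1.61) stood at 19.6 to 24.5 CPM in the higher-numbered set and 5.93 to 8.45 CPM in the lower-numbered set. Gpx1, the main cytosolic glutathione peroxidase (1.42), stood at 1158 to 1250.0 CPM in the higher-numbered set and 433 to 464 CPM in the lower-numbered set. Mgst3 (1.31) stood at 9.16 to 10.9 CPM in the higher-numbered set and 3.50 to 4.91 CPM in the lower-numbered set.

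At the other end, Slc7a11 (-2.22) stood at 16.9 to 25.5 CPM in the higher-numbered set and 73.4 to 123 CPM in the lower-numbered set. Sod2 (-1.87) stood at 362 to 496 CPM in the higher-numbered set and 1391 to 1587 CPM in the lower-numbered set. Me1 (-1.59) stood at 45.6 to 53.8 CPM in the higher-numbered set and 141 to 159 CPM in the lower-numbered set. Srxn1 (-1.39) stood at 5.45 to 9.90 CPM in the higher-numbered set and 17.8 to 22.3 CPM in the lower-numbered set. Prdx5 (-1.22) stood at 615 to 691 CPM in the higher-numbered set and 1409 to 1570.0 CPM in the lower-numbered set. For each of these 10 members the 2 sets did not overlap.

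The macrophage markers summed to 20870 to 22620 CPM in the higher-numbered set and 8527 to 9026 CPM in the lower-numbered set, the stellate markers to 19.1 to 24.8 CPM in the higher-numbered set and 62.7 to 102 CPM in the lower-numbered set, and the endothelial markers to 79.8 to 132.8 CPM in the higher-numbered set and 358 to 452 CPM in the lower-numbered set. The macrophage markers did not share 1 direction. Lyz2, the largest in the higher-numbered set, had group means of 8452 to 9483 CPM there. In the lower-numbered set its means were 1017 to 1172 CPM. Cd14 had group means of 172 to 196 CPM in the higher-numbered set, against 934 to 1037 CPM in the lower-numbered set. Marco, Clec4f and Cd163 were also lower in the higher-numbered set in each group, and Cd68 differed little. The stellate markers were mixed too, and their sums mostly followed Reln. Its group means were 9.29 to 12.5 CPM in the higher-numbered set and 60.7 to 81.0 CPM in the lower-numbered set. Dcn, Lum and Colec11 were also lower in the higher-numbered set in each group. Col1a1, Acta2, Des and Rgs5 were higher there in each group, and the rest differed in direction between groups. The part of these markers in the set differences of the members was not tested. Nfe2l2 itself differed by -0.14 on the log2 scale between the sets, Keap1 by -0.17 and Bach1 by -0.61. The established NRF2 targets did not share 1 direction between the sets: Nqo1 and Gclc (0.68) were higher in the higher-numbered set, and Gclm (-0.56), Txnrd1, Srxn1 and Slc7a11 were lower there.

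A wider list of 68 other NRF2, glutathione and redox genes was read beside the members, of which 66 were found and 57 tested. With hAEC, edgeR, DESeq2 and limma-voom called 0 of the 57. In edgeR, 4 had an unadjusted p under 0.05 (5.61% of all genes did), and all 4 were lower, where 2.35% of all genes were. The smallest p belonged to Txnrd2 (-0.13), Oplah (-0.14) and Slc48a1 (-0.08), each at an adjusted p of 0.881. With hAMSC, 9 were lower at an unadjusted p under 0.05 in edgeR, where 4.41% of all genes were, and 1 higher, where 5.27% were. After adjustment 2 fell, where 0.0812% of all genes did, and none rose. They were Sesn2, a stress sensor that promotes peroxiredoxin repair, and Slc48a1, a haem transporter. Sesn2 stood at 93.4, 92.1, 59.9 and 56.2 CPM with hAMSC, against 109, 109, 67.4 and 71.7 CPM with vehicle (log2 difference -0.25 ± 0.04, SE; adjusted p = 0.0277). Slc48a1 stood at 499.5, 470.0, 631 and 605 CPM with hAMSC, against 584, 553, 708 and 684 CPM with vehicle (-0.20 ± 0.04, SE; adjusted p = 0.031).

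Both genes lay below vehicle in both sets with hAMSC. With 1 library left out at a time Sesn2 passed in 5 of 12 fits (adjusted p = 0.0195 to 0.112 over the 12), and was lost without hAEC 4 or 11, hAMSC 8 or 16, or vehicle 17, 18 or 20. Slc48a1 passed in 3 of 12 (adjusted p = 0.0157 to 0.164), those without hAEC 12, hAMSC 7 or hAMSC 15, and was lost without each of the 9 others. DESeq2 called 7 of the 57 and limma-voom 5, against 2 with edgeR. Next in order of p were Chac1, which breaks glutathione down (-0.41, adjusted p = 0.0644), Sqstm1, the autophagy adaptor that draws KEAP1 away from NRF2 (-0.17, adjusted p = 0.0806), and Hmox1, haem oxygenase and an NRF2 and BACH1 target (-0.20, adjusted p = 0.0833); none of the 3 passed with edgeR, while DESeq2 and limma-voom called all 3. Hmox1 stood at 2183, 2186, 2511 and 2396 CPM with hAMSC, against 2675, 2738, 2618 and 2639 CPM with vehicle. Between hAEC and hAMSC edgeR called 0 of the 57, DESeq2 2 and limma-voom 0. At an unadjusted p under 0.05 in edgeR, 8 were higher, where 3% of all genes were, and 3 lower, where 3.37% were. The smallest p belonged to Sesn2 (0.21, adjusted p = 0.106), Chac1 (0.33, adjusted p = 0.215) and Sqstm1 (0.13, adjusted p = 0.34). The median over the list was -0.02 with hAEC and -0.05 with hAMSC, each against vehicle.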

How the data were processed

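Polyadenylated RNA of 12 libraries was sequenced, per the labels' protocols after RNAqueous-Micro extraction and TruSeq stranded mRNA preparation. The authors deposited expected counts per gene in 1 table per library. The tools named in the submitters' processing notes are STAR and RSEM, besides FastQC, Trim Galore and limma, and the builds named are Rnor_6.0 and rn6. Versions were not given in the sources used here. Among values above 0, 81.26% were whole within 1e-06. RSEM shares a read that matches several genes among them, so close paralogs carry an uncertainty the tests do not hold.

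After rounding, the expected counts went into edgeR 4.0.16 (R 4.3.3). There filterByExpr kept 13539 genes, libraries were scaled by TMM (factors 0.973 to 1.03), and a robust quasi-likelihood fit held the library set and the group over all 12 libraries, with Benjamini-Hochberg adjustment over all genes tested and a threshold of 0.05, two-sided. Library sets were split on the first principal component. The biological coefficient of variation was 9.92% with the set as a term, against 38.9% with the group alone. CPM were computed from the rounded counts and the scaled totals and are not per length. Members are therefore not compared in level with each other, while the marker levels and sums compare genes only roughly. No 2 libraries were duplicates: counts within group and set differed by 6.93 to 10.3 times sampling noise (chi-square over its degrees of freedom).

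The edgeR fit was tested on simulated data, with 1 common spread for all genes, for each co-culture against vehicle. Of genes changed by a log2 size of 0.25, it called 11.9% with hAEC and 5.97% with hAMSC. At a log2 size of 0.5 it called 86.6% and 85.1%. Members that did not pass may therefore hold differences of the smaller size. The interaction form was not tested on simulated data. DESeq2 1.42.0 and limma 3.58.1 were run on the data as alternatives. Other scalings, filters, fits within sets, and fits without each library were also tried. Values by library in the groups compared are given for 9 fixed NRF2 genes, for members that passed and for the 5 members of smallest p in each comparison. They are also given for the 3 of smallest p in the interaction of each co-culture against vehicle. In the interaction of hAEC against hAMSC, Prdx5 and Gpx3 are given by their estimates. The 5 at each end between sets with a mean of at least 5 CPM are given as ranges within sets. The members and lists were chosen with earlier results of these data known. Sequences are from RefSeq (GRCr8).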

Additional observations from a re-analysis of the deposited data

Results flagged for a closer look

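For 7 member results the libraries of a group lay wholly on one side of the other group in one set and wholly on the other side in the other set. They made up 5% of members for hAEC against vehicle, 5% for hAMSC against vehicle and 7.5% for hAEC against hAMSC. The share of all genes with such a pattern was not computed, so the 7 are named as a description only. The values are log2 effects in the higher-numbered set minus those in the lower-numbered set, and none passed the adjusted test of that difference (edgeR interaction, adjusted over all genes tested). For hAEC against vehicle they were Keap1, the NRF2 inhibitor, at -0.20 (-0.14 in the higher-numbered and 0.06 in the lower-numbered set; adjusted p = 0.935) and Mgst2 at -0.68 (-0.24 and 0.45; adjusted p = 0.901). For hAMSC against vehicle they were Gpx3, the secreted glutathione peroxidase, at 0.67 (0.26 and -0.40; adjusted p = 0.384) and Prdx5 at 0.20 (0.07 and -0.12; adjusted p = 0.334). For hAEC against hAMSC they were Gpx3 at -0.65 (adjusted p = 0.932), Prdx5 at -0.19 (adjusted p = 0.932) and Slc7a11 at 0.71 (adjusted p = 0.101). Gpx3 and Mgst2 lay at or under 1.73 CPM in the lower-numbered set. Single libraries far from the other 3 of a group could hardly be seen in groups of 4 that hold 2 libraries of each set, so the 0 found among 120 groups says nothing about outliers.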

How the results depend on the processing

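The number of members called with hAMSC against vehicle was 4, and 6 with DESeq2 (Gclm and Slc7a11 besides the 4), 2 with a fit that is not robust, 1 with the 2 groups alone, 1 in the higher-numbered set alone, 0 with the group alone and no library set, and 2 to 4 with a library left out. For hAEC against hAMSC DESeq2 called 3. Without the filter on low counts, the interaction of hAMSC against vehicle called 1 member and that of hAEC against hAMSC called 1; DESeq2 also called 1 for the interaction of hAEC against hAMSC, and each of these calls was Slc7a11. The median of the members with hAEC against vehicle was -0.0415, and -0.0727 in the higher-numbered set alone. The log2 difference of Nfe2l2 with hAMSC, 0.04, was -0.0056 in the higher-numbered set alone. The cause of these changes was not tested. Over all genes, the count called with hAMSC was 32 and ran from 0 to 155 under other settings and from 8 to 153 with a library left out. With hAMSC, Gstp1 passed in 23 of 24 alternatives, Nqo1 in 21, Gsta1 in 10 and Sod2 in 7. Sod2 was not called with upper-quartile scaling (adjusted p = 0.0926) or library size alone (adjusted p = 0.0615). Of 765 alternatives for 33 single-gene results, 720 kept direction and side of the threshold. Of the rest, 35 no longer passed, 9 newly passed and 1 turned its sign. All 35 belonged to the 4 members called with hAMSC, each with 24 alternatives. The other results had not passed to begin with, so the 720 say little about how stable the 4 calls are. Counts past 2-fold between sets were 9 and 6 under every scaling. Leaving out a library leaves 1 of its group in its set. No paired analysis was possible because the labels do not say which rat or culture well stands behind a library. Gstt1, Gsta4 and, in the lower-numbered set, Gpx3 and Mgst2 are limited by depth.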

Other observations

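The 2 subunits of glutamate-cysteine ligase moved apart between the sets. The ratio of Gclc to Gclm counts was 9.83 to 11.6 in the higher-numbered set (median 10.7) and 4.20 to 5.04 in the lower-numbered set (median 4.42), with no overlap. Genes are of different length, so the ratio is read between libraries only.

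In the wider redox list, 4 of 57 tested genes were past 2-fold higher in the higher-numbered set (9.71% of all genes were) and 6 lower (9.98% of all genes were), so the list's counts are near those of all genes and the genes are named as a description only. Sesn1, a sestrin (log2 difference 2.88), stood at 60.2 to 76.4 CPM in the higher-numbered set and 9.34 to 9.93 CPM in the lower-numbered set. Oplah, which recovers glutamate from oxoproline (2.59), stood at 57.6 to 70.2 CPM in the higher-numbered set and 9.60 to 11.2 CPM in the lower-numbered set. Maff, a small MAF partner of NRF2 (-2.02), stood at 17.4 to 22.6 CPM in the higher-numbered set and 79.3 to 84.8 CPM in the lower-numbered set. The others past 2-fold were Txnrd3 (1.69) and Abcc5 (1.04) among the higher, and Ggt5 (-1.72), Gpx7 (-1.54), Chac1 (-1.54), Bach2 (-1.10) and Ncf4 (-1.05) among the lower.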
